A study of Mus musculus with 10 samples.

Results

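The step from naive ESC to d1 EpiLC was described by comparing all cells of the 2i ESC library with all cells of the d1 EpiLC library, taken by the suffix of their barcodes. The 2i ESC library held 227 cells and the d1 EpiLC library 280 cells, that is 507 of the 2782 cells profiled by droplet-based scRNA-seq (10x Genomics, 3′ chemistry with unique molecular identifiers, UMIs) in 8 libraries of this experiment. Both populations were the male wild-type mouse ESC line E14Tg2a, with no transgene and no genome edit. The 2i ESC were kept in N2B27 medium on gelatin with LIF, the MEK inhibitor PD0325901 at 0.4 µM and the GSK3 inhibitor CHIR99021 at 3 µM, for at least 4 days after a period in serum plus LIF. The d1 EpiLC were sampled 1 day after transfer to fibronectin (15 µg/ml) in N2B27 with Activin A at 20 ng/ml, bFGF at 12 ng/ml and knockout serum replacement, without the inhibitors and without LIF. Each stage was 1 library with no replicate, so stage and library cannot be told apart, no test between stages was made, and genes were named by fixed rules of size.

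Naive ESC in 2i plus LIF correspond to the pre-implantation epiblast and are held there by a network of transcription factors, among them KLF4, KLF2, ESRRB, TFCP2L1 and TBX3. LIF acts through JAK and STAT3, the GSK3 inhibitor relieves TCF7L1 repression, and the MEK inhibitor blocks the FGF/ERK signal that ESC produce themselves. Once these conditions are lifted, cells leave the naive state and pass through formative pluripotency, which is marked by OTX2, POU3F1, FGF5 and the de novo DNA methyltransferases while OCT4 (*Pou5f1*) and SOX2 stay on.

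Expression was measured as UMIs per gene summed over the cells of a library and scaled to 1000000 UMIs of that library (CPM), from 8757170 UMIs in 2i ESC (median 33971 UMIs and 4682 genes per cell) and 10997941 UMIs in d1 EpiLC (36750 UMIs and 5082.5 genes). Brackets after a fold give the exact 95% interval of the ratio of UMIs, brackets after a share the exact (Clopper-Pearson) 95% interval, and both cover counting error only. A level of 0 stands for less than 3 UMIs, 0.343 CPM in 2i ESC and 0.273 CPM in d1 EpiLC. No barcode sequence occurred in both libraries, and at most 2 were shared with any other library. Scrublet called 1 of 227 2i ESC and 20 of 280 d1 EpiLC (7.14%) doublets, and without them 1500 genes were at least 2-fold higher and 822 lower, beside 1511 and 816 with them. Markers of other cell types were summed for each list. The 7 markers of primitive endoderm summed to 1.48 CPM in 2i ESC and 1.55 CPM in d1 EpiLC, with *Sox17* at 0 in both, and 6 of trophoblast to 3.88 and 4.18 CPM, with *Elf5* at 0 in both. The 7 markers of the 2-cell state summed to 0 and 0.273 CPM. The 7 fibroblast markers summed to 1.26 and 12.7 CPM, a ratio of 10.1 (5.49 to 20.8), and their part in the results was not tested. Of these, *Dcn* (0 and 7.27 CPM) and *Thy1* (1.03 and 4.82 CPM) were higher in d1 EpiLC, while *Col1a1* was at 0.114 and 0.182 CPM and *Postn* and *Lum* at 0 in both. The 5 neurectoderm markers summed to 28.4 CPM in 2i ESC and 12.5 CPM in d1 EpiLC, almost all of it *Tubb3*, with *Hes5* at 0 in both.

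The defining markers of both labels were found where the labels place them. *Klf4*, *Esrrb*, *Zfp42*, *Tfcp2l1* and *Tbx3* were each higher in 2i ESC, *Otx2*, *Fgf5*, *Pou3f1* and *Dnmt3b* were each higher in d1 EpiLC, and *Pou5f1* was at 1495 CPM in 2i ESC and 1353 CPM in d1 EpiLC. A gene was called higher or lower when log2(CPM + 1) differed by at least 1, that is 2-fold, among 12479 genes with at least 10 UMIs over both libraries. On this scale folds of genes at a few CPM are understated. By this rule 1511 genes (12.1%) were higher and 816 genes (6.54%) were lower in d1 EpiLC, 18.6% in either direction. Differences of at least 8-fold were found for 89 genes upward and 47 genes downward. The median log2 ratio of all genes tested was 0.17, and the quartiles were -0.27 and 0.61. With a size factor by the median ratio in place of the total, that median moved by -0.14 and the calls became 1167 higher and 1012 lower, 53.6% higher in place of 64.9%. Genes called lower made up 3.5% of the UMIs in 2i ESC and 1.08% in d1 EpiLC, and genes called higher 2.00% and 5.69%. Of the higher genes, 186 had no UMI in 2i ESC, and 19 of the lower genes had none in d1 EpiLC. Such genes passed the minimum of 10 UMIs through the other library alone. The d1 EpiLC library also held more UMIs, 10997941 against 8757170, so these counts are not compared.

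**Figure D1:**
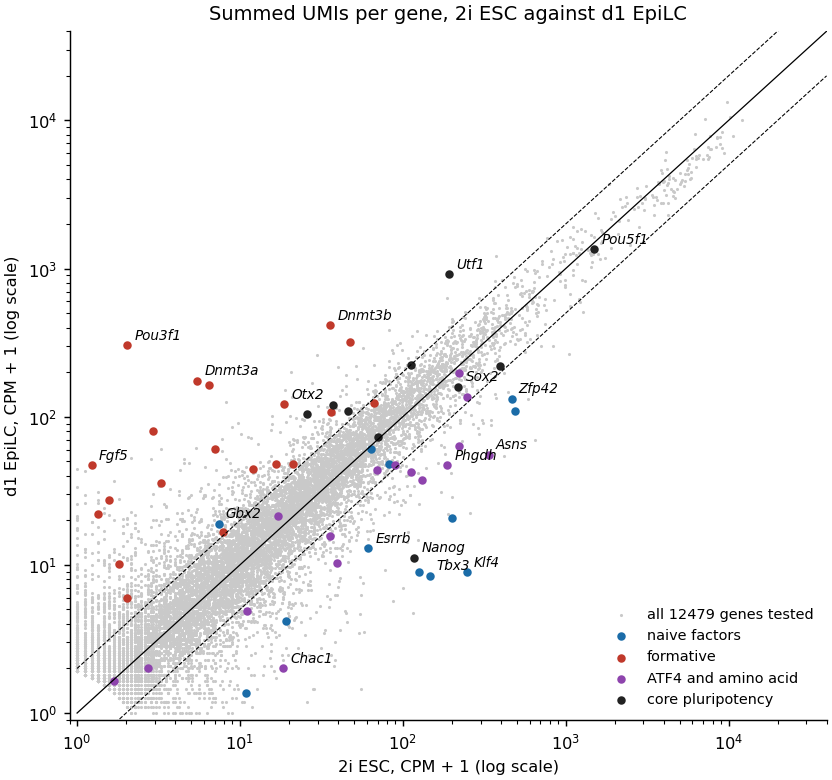
Level of every gene tested, as CPM + 1 of the summed UMIs on log scales, in 2i ESC (horizontal) and d1 EpiLC (vertical), with members of 4 gene lists coloured, the diagonal solid and the 2-fold lines dashed. *Klf4*, *Tbx3* and *Nanog* lie far below the lower line, *Pou3f1*, *Fgf5* and *Dnmt3a* far above the upper line, and *Pou5f1* (1495 and 1353 CPM) lies on the diagonal.

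The gene lists used from here on were written with earlier results of these data known, so their counts are not independent evidence. Among all genes tested 12.1% were higher and 6.54% lower, and every list count below is to be read beside these shares. Naive transcription factors were the group with the lowest median. Of 12 listed, 9 were lower in d1 EpiLC, 1 was higher and 2 were neither, against 6.54% lower among all genes tested, and their median log2 ratio was -2.23 beside 0.17 for all genes. Together they fell from 1903 to 422 CPM, and at d2 EpiLC they were at 79.4 CPM. *Klf4* (chromosome 4, 55527143 to 55532466, minus strand, GRCm38), a Krüppel-like factor downstream of STAT3, was at 247 CPM in 2i ESC and 7.91 CPM in d1 EpiLC, 31.2-fold lower (25.1 to 39.1). *Tbx3* (chromosome 5, 119670669 to 119684724, plus strand), a T-box factor, was at 145 and 7.46 CPM, 19.5-fold lower (15.6 to 24.7). *Tfcp2l1* was at 125 and 7.91 CPM, 15.8-fold lower (12.7 to 19.9), and *Klf5* at 198 and 19.7 CPM. *Klf5* was close to its d2 level of 15.0 CPM after 1 day, while *Klf4* went on to 4.12 CPM, *Tbx3* to 1.17 CPM and *Tfcp2l1* to 0.896 CPM.

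Other naive factors were still well above their d2 level. Of these, *Zfp42*, *Klf2* and *Esrrb* were lower at d1, and *Nr0b1* and *Zfp57* did not pass the 2-fold rule. *Zfp42*, also called Rex1 and widely used as a reporter of the naive state, was at 464, 131 and 22.1 CPM in 2i ESC, d1 EpiLC and d2 EpiLC, 3.54-fold lower at d1 (3.33 to 3.76). *Klf2* was at 485, 108 and 13.2 CPM in the same order, 4.48-fold lower at d1 (4.2 to 4.78), and the nuclear receptor *Esrrb* at 60.5, 11.9 and 1.97 CPM. The orphan nuclear receptor *Nr0b1*, at 62.5 CPM in 2i ESC, was still at 59.6 CPM after 1 day and was at 5.38 CPM in d2 EpiLC. *Zfp57*, which protects imprinted methylation, was at 81.3, 46.7 and 9.95 CPM. Thus the 12 factors differed among themselves by log2 ratios from -4.80 to 1.36, the positive end being *Gbx2* (6.39 and 18 CPM), a homeobox gene that acts downstream of LIF and is also expressed in later embryos. Values of d2 EpiLC are levels set beside the others, since a second comparison would use the same 2i ESC.

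Genes that mark naive cells without being part of the transcription factor network were less uniform, with 5 of 12 lower, 1 higher and a median log2 ratio of -0.82. *Jam2*, a junctional adhesion molecule, was at 187 and 9.73 CPM, 19.2-fold lower (15.8 to 23.6), *Tcl1*, a coactivator of AKT, at 105 and 13.3 CPM, and *Spp1*, which encodes osteopontin, at 416 and 53.4 CPM. *Dppa5a*, an RNA-binding protein of pluripotent cells, was the most abundant member in both libraries and was at 4668 and 2977 CPM, 1.57-fold lower (1.55 to 1.59). *Tdh*, the threonine dehydrogenase of mouse ESC, was at 495 and 362 CPM, *Fgf4* at 64.4 and 75.9 CPM and *Manba* at 24.1 and 29.8 CPM, with 72.2, 32.8 and 2.42 CPM in the same order in d2 EpiLC. *Pecam1* (24.8 and 11.9 CPM) stood just short of the 2-fold rule on the scale with the added 1 CPM.

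Core pluripotency genes split into several courses. Of 10 listed, 5 were higher, 1 was lower and 4 were neither, with a median of 0.52. *Nanog* was at 116, 10.2 and 18.8 CPM over the same 3 libraries, 11.4-fold lower at d1 (9.37 to 14), and was the lower member. *Sox2* was at 218 and 158 CPM, *Sall4* at 69.9 and 71.9 CPM and *Tdgf1*, the NODAL co-receptor, at 393 and 218 CPM. Higher members were *Utf1*, a chromatin factor of pluripotent cells (192 and 912 CPM, 4.75-fold, 4.51 to 5.01), the neighbouring DNA-binding factors *Dppa2* (24.8 and 103 CPM) and *Dppa4* (36.1 and 119 CPM), the microRNA regulator *Lin28a* (44.8 and 108 CPM) and *L1td1* (111 and 224 CPM). Among 6 factors of primordial germ cells none was higher and 2 were lower. These were *Tfap2c* (23.3 and 1.45 CPM, 16-fold lower, 9.63 to 28.5) and *Prdm14* (9.82 and 0.364 CPM), while *Prdm1* (6.51 and 3.82 CPM) and *Dppa3* (3.54 and 6.46 CPM) were neither.

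The LIF pathway was lower at several of its levels. Of 13 listed genes 7 were lower, against 6.54% among all genes tested, 1 (*Gbx2*) was higher and the median was -1.16. Its members *Klf4*, *Tfcp2l1* and *Gbx2* were already counted among the naive factors, so the 2 lists are not separate. The shared receptor chain *Il6st*, known as gp130, was at 16.4 and 5.82 CPM and the transcription factor *Stat3* at 31.2 and 10.5 CPM, whereas the specific receptor chain *Lifr* (14.4 and 11.5 CPM) and the kinase *Jak1* (11.1 and 7.64 CPM) were neither. The direct targets differed more. *Bcl3*, an atypical member of the IκB family, was at 27.6 and 0.455 CPM, 60.8-fold lower (25.7 to 189), and *Socs3*, the feedback inhibitor of this receptor, at 35.4 and 1.45 CPM, 24.3-fold lower (14.7 to 43.1). *Pim3* was at 115 and 50.7 CPM, while *Pim1* (79.4 and 64.3 CPM) and *Junb* (18.4 and 11.9 CPM) were neither. *Socs3* was the gene of this list whose promoter held the letters of a STAT site, TTCNNNGAA on either strand, in the 250 bases before the RefSeq start. That window, chr11:117969367-117969616 (GRCm38.p6, minus strand), is printed because *Socs3* is the standard readout of STAT3, with the matching letters, at position -154 from the start, in capitals.
Socs3 promoter: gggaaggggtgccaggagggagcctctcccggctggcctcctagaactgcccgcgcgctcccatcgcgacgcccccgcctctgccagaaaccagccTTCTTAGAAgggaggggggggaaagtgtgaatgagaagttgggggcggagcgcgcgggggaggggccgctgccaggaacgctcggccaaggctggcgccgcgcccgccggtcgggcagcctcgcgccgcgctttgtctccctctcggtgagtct
Such letters were found in 1 of 15 windows of the LIF list, in 7.75% of the windows of genes called lower, in 4.94% of those called higher, in 5.70% of all genes tested and in 7.02% of all 32851 RefSeq windows. These shares describe letters and do not show binding.

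The 15 largest falls among genes with at least 100 UMIs included 5 members of these lists (*Klf4*, *Tbx3*, *Jam2*, *Bcl3* and *Socs3*) and 10 further genes. *Trpm1* (chromosome 7, 64153835 to 64269775, plus strand), a cation channel known from retina and pigment cells, was first with 54.6 and 0.455 CPM (51.1 to 371-fold lower). *Kit*, the receptor for stem cell factor, was at 24.9 and 0.182 CPM (37.4 to 1138-fold lower). The connexin gene *Gjb5* was at 36.8 and 1.09 CPM, 33.7-fold lower (19 to 65.9). *Sfrp1*, a secreted WNT antagonist, was at 85.6 and 4.73 CPM, *Smarcd3*, a subunit of the BAF remodeller, at 53.1 and 2.46 CPM, and *Mras*, a small GTPase, at 37.3 and 1.27 CPM. Also among them were *Ly6g6e* (26.9 and 0.455 CPM), the pepsinogen gene *Pgc* (56.8 and 2.55 CPM) and the stress-response gene *Nupr1* (99.7 and 6.00 CPM).

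Formative genes were the group with the highest median, on a list written with earlier results of these data known. Of 20 listed, 19 were higher and none was lower, against 12.1% higher among all genes tested, with a median log2 ratio of 2.92. Their sum was 277 CPM in 2i ESC, 2151 CPM at d1 and 2180 CPM at d2, a ratio of 7.75 (7.43 to 8.08) over the first day. The POU factor *Pou3f1*, also called Oct6 (chromosome 4, 124656807 to 124660655, plus strand), went from 1.03 to 302 CPM, a ratio of 294 (154 to 643), and was the largest rise among genes with at least 100 UMIs. *Fgf5*, the ligand most used to mark the post-implantation epiblast (chromosome 5, 98254184 to 98277030, plus strand), rose from 0.228 CPM (2 UMIs) to 46.3 CPM and was at 72.6 CPM in d2 EpiLC. The homeobox factor *Otx2* was already at 17.6 CPM in 2i ESC and at 121 CPM in d1 EpiLC, 6.86-fold (5.80 to 8.16). *Lef1*, a nuclear partner of β-catenin, rose from 1.94 to 78.6 CPM, the epithelial factor *Grhl2* from 0.343 to 21.1 CPM and *Sall2* from 0.571 to 26.5 CPM. *Etv5* (65.7 and 122 CPM) was the member short of 2-fold.

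Some formative genes were higher at d1 than at d2, and others went on rising. The basic helix-loop-helix factor *Tcf15* was at 46.5 CPM in 2i ESC, 317 CPM at d1 and 74.9 CPM at d2, and *Dnmt3l* at 35.1, 107 and 31.2 CPM. *Dnmt3b* was at 34.9, 413 and 798.4 CPM, *Pim2* at 5.48, 162 and 270 CPM, *Sox11* at 2.28, 34.8 and 77.4 CPM and *Sox3* at 0.799, 9.09 and 17.0 CPM. Genes of the primitive streak and the primed state stayed low. Of 13 listed only 6 reached 10 UMIs, with 2 higher (*Fgf8*, 0.228 and 5.46 CPM, and *Wnt3*, 0 and 1.09 CPM) and 2 lower (*Sp5*, 11.6 and 0.455 CPM, and *Gsc*, 2.06 and 0.0909 CPM). *T* was at 0.571 and 0.364 CPM and *Mesp1* and *Cer1* at 0 in both.

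Of the 15 largest rises 5 were on the formative list and 2 more on the lists of FGF ligands and targets. Among the others, *Wt1*, a zinc finger factor of the developing kidney and gonad (chromosome 2, 105126529 to 105173616, plus strand), had no UMI in 2i ESC and 43.6 CPM in d1 EpiLC, at least 127-fold higher, and 9.50 CPM in d2 EpiLC. *Dok2*, an adaptor of receptor tyrosine kinases (0 and 32.5 CPM), was at least 94.8-fold higher, the zinc finger repressor *Bcl11a* (0 and 24.7 CPM) at least 72.2-fold and *Tmem54* (0 and 20.4 CPM) at least 59.5-fold. *Esrp1*, which directs epithelial splicing, was at 0.343 and 29.9 CPM, the membrane-bound factor *Myrf* at 1.14 and 51.6 CPM, the cyclin *Ccno* at 0.114 and 28.6 CPM and the protease gene *Prss50* at 0.114 and 25 CPM.

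**Figure D2:**
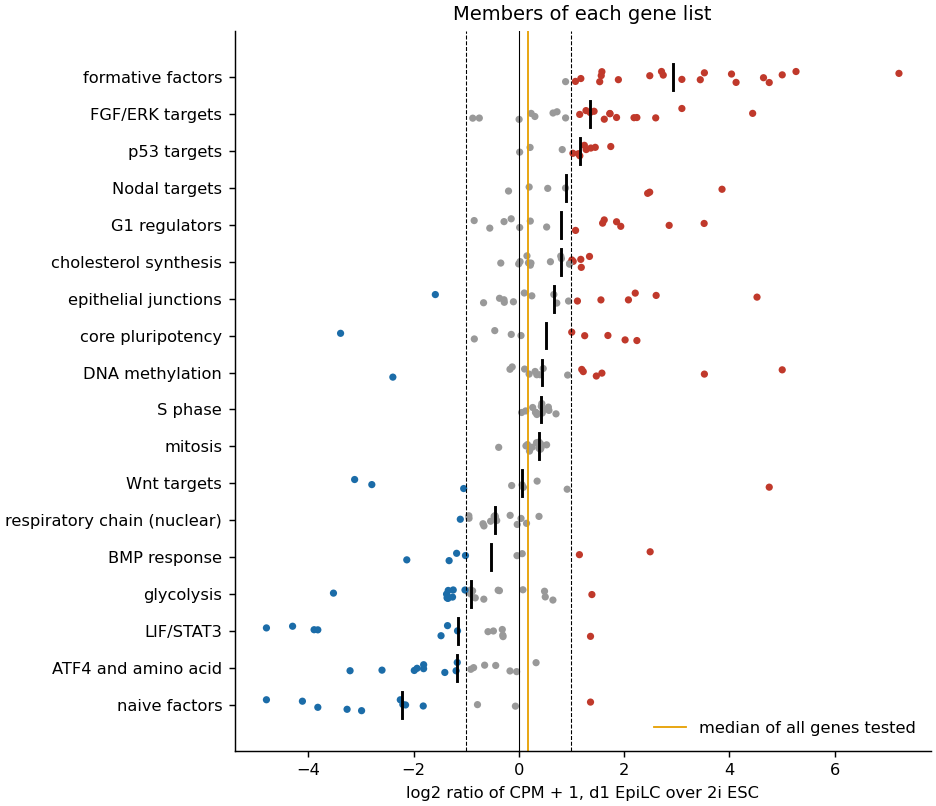
Each point is 1 gene of the list named at the left, at its log2 ratio of CPM + 1 in d1 EpiLC over 2i ESC, red when at least 2-fold higher, blue when at least 2-fold lower and grey otherwise. Black bars are list medians, dashed lines the 2-fold rule and the yellow line the median of all genes tested, 0.17, with the formative list (2.92) at the top and the naive factors (-2.23) at the bottom.

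FGF/ERK signalling genes that were called were all higher, among ligands, feedback inhibitors and targets alike. Of 8 ligands and receptors 7 reached 10 UMIs, of which 4 were higher and none lower. These were *Fgf5*, *Fgf8*, *Fgf15* (0.114 and 41.9 CPM) and the receptor *Fgfr2* (0.571 and 8.09 CPM), while the main receptor *Fgfr1* was at 20.3 and 29.0 CPM. Of 21 ERK targets 13 were higher and none lower, against 12.1% higher among all genes tested, with a median of 1.36. Among the phosphatases that shut ERK off again, *Dusp4* was at 0.685 and 35.6 CPM, 52.0-fold (23.7 to 143), and *Dusp6* at 7.31 and 26.6 CPM, 3.63-fold (2.76 to 4.84). Of the Sprouty feedback inhibitors *Spry4* was at 2.06 and 13.5 CPM and *Spry1* at 4.23 and 12.4 CPM, while *Spry2* was at 13.6 CPM on both sides. The ETS factors *Etv4* (6.05 and 59.4 CPM, 9.81-fold, 7.41 to 13.2) and *Etv1* (6.17 and 42.5 CPM) and the immediate early gene *Egr1* (13.9 and 48.6 CPM) were higher as well. *Fos* (8.34 and 4.55 CPM) and *Ier3* (8.68 and 4.27 CPM) were the members with negative ratios. Of 8 early genes tested that dissociation can induce 1 (*Egr1*) was higher, near the 12.1% of all genes, and none was lower. Their median was -0.51, with 5 negative and 3 positive ratios. The list summed to 4354 CPM in 2i ESC and 2922 CPM in d1 EpiLC, a ratio of 0.671 (0.661 to 0.681). *Jun* was at 5.94 and 3.00 CPM and *Hspa1a* at 0.114 and 0.818 CPM. A difference in handling between the libraries was not tested.

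Targets and components of the WNT pathway went both ways. Of 14 WNT targets 9 reached 10 UMIs, with 3 lower and 1 higher. The lower ones were *Sp5* (25.6-fold, 10.6 to 80.6), *Cdx1* (7.19 and 0.182 CPM) and *Axin2*, the feedback inhibitor (13.5 and 6.00 CPM, 2.25-fold, 1.65 to 3.08), and the higher one was *Lef1*. *Notum* (19 and 19.8 CPM) was at 0.359 CPM only in d2 EpiLC. Of 12 mediators tested 3 were higher and none lower, among them the repressor *Tcf7l1* (23.3 and 51.3 CPM) and the receptor *Fzd7* (8.56 and 23.5 CPM), while *Ctnnb1*, which encodes β-catenin, was at 99.6 and 129 CPM. The list medians, 0.06 and 0.15, turned to -0.09 and -0.01 with a size factor by the median ratio, and no direction is given for them.

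Some NODAL targets rose, while ligands and receptors were mostly neither. Of 7 targets tested 3 were higher, none was lower and the median was 0.89. The inhibitor *Lefty1* was at 38.8 CPM in 2i ESC, 216 CPM at d1 and 479 CPM at d2, 5.57-fold higher at d1 (4.97 to 6.26), and *Skil* at 7.65, 47.5 and 58.3 CPM. *Lefty2* (26.7 and 39.6 CPM) and *Smad7* (66.9 and 58.3 CPM) were neither. Among 11 ligands, receptors and mediators 1 was higher (*Acvr2b*, 17.4 and 42.6 CPM) and 1 was lower (*Pcsk6*, a protease that processes NODAL, 15.8 and 3.73 CPM). Both counts were near the shares of all genes tested, 12.1% higher and 6.54% lower. *Nodal* itself was at 20.3 and 34.7 CPM. Of 8 BMP response genes tested 4 were lower, namely *Id1* (7.08 and 3.00 CPM), *Id3* (63.4 and 27.4 CPM), *Id4* (4.57 and 0.273 CPM) and the ligand *Bmp4* (9.02 and 3.00 CPM). *Id2* (4.00 and 10.1 CPM) and *Msx1* (0 and 4.64 CPM) were higher.

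Both de novo DNA methyltransferases rose within 1 day. *Dnmt3a* (chromosome 12, 3806007 to 3914443, plus strand) was at 4.45 CPM in 2i ESC, 174 CPM at d1 and 132 CPM at d2, 39.1-fold higher at d1 (28.5 to 55.1), and *Dnmt3b* was 11.8-fold higher (10.5 to 13.3). The maintenance machinery was nearly level, with *Dnmt1* at 51.8 and 64.5 CPM and *Uhrf1* at 141 and 195 CPM. Among the TET dioxygenases, which oxidize methylcytosine, *Tet1* was at 77.3 and 88.7 CPM, *Tet2* at 19.1 and 2.82 CPM (6.77-fold lower, 4.59 to 10.3) and *Tet3* at 0.114 and 2.09 CPM. Of the 16 genes on this list 6 were higher and 1 was lower, and *Mbd3* (162 and 380 CPM) and *Gadd45a* (25.9 and 60.6 CPM) were among the higher ones. Of 16 chromatin regulators 2 were higher, near the 12.1% of all genes tested, and none was lower. These were *Jarid2* (66.5 and 162 CPM), which recruits PRC2, and *Kdm2b* (21.5 and 66.4 CPM), which recruits PRC1 to CpG islands. The H3K4 methyltransferase genes *Kmt2c* (14.2 and 13.8 CPM) and *Kmt2d* (7.19 and 9.91 CPM), the PRC2 catalytic subunit *Ezh2* (125 and 148 CPM) and *Kdm1a* (107 and 95.6 CPM) were neither.

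Germline genes known to be kept silent by promoter methylation were not lower at d1. Of 15 listed 13 reached 10 UMIs, with 5 higher and none lower, among them *Mael* (5.48 and 15.0 CPM, and 31.2 CPM in d2 EpiLC), *Hormad1* (4.11, 15.5 and 3.68 CPM) and *Sycp1* (0.228, 3.91 and 4.48 CPM), while *Dazl* was at 6.17, 7.37 and 6.36 CPM. Of 19 imprinted genes 18 were found and 12 tested, with 5 higher and none lower. *Mest* was at 18.2 and 91.0 CPM, *Snrpn* at 81.0 and 384 CPM, *Cdkn1c* at 4.34 and 60.3 CPM, *Peg3* at 8.91 and 26.3 CPM and *Peg10* at 3.88 and 14 CPM, while *Meg3* (319 and 485 CPM) and *Kcnq1ot1* (61.5 and 71.1 CPM) were neither. *H19* was at 0 in both libraries, and the parental allele was not read.

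Part of the glycolysis genes were lower at d1, and the list as a sum was higher again at d2. Of 21 listed 8 were lower and 1 was higher, with a median of -0.91, and their sum was 11438 CPM in 2i ESC, 6102 CPM at d1 and 12802 CPM at d2. The glucose transporter *Slc2a3*, or GLUT3, was at 257, 21.5 and 74.8 CPM, 12.0-fold lower at d1 (10.5 to 13.8). *Aldoa* was at 1284, 506 and 1546 CPM, *Gpi1* at 368, 141 and 281 CPM and lactate dehydrogenase *Ldha* at 1216, 598 and 2450 CPM. *Gapdh* (4238, 2305 and 3956 CPM) and *Pkm* (1061, 668 and 1461 CPM) were under 2-fold. The lactate exporter *Slc16a3* (33.1, 88.3 and 166 CPM) was the higher member, and *Ldhb* (706, 297 and 185 CPM) went on falling. Several of these genes, *Gapdh*, *Aldoa*, *Pgk1* and *Ldha* among them, have near-identical processed copies in the mouse genome, and how the counting divided such reads was not tested. Of 15 nuclear genes of the respiratory chain 1 was lower (*Sdhb*, 296 and 137 CPM), near the 6.54% of all genes tested. The 15 nuclear genes had a median of -0.45, and 12 had negative ratios. Their sum was 8828 CPM in 2i ESC and 6737 CPM in d1 EpiLC, a ratio of 0.763 (0.756 to 0.771). The 13 mitochondrial genes had none past 2-fold and a median of 0.37, beside mitochondrial shares of all UMIs of 4.64% in 2i ESC and 5.29% in d1 EpiLC.

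Called genes of cholesterol synthesis were all higher. Of 17 listed 5 were higher and none was lower, against 12.1% and 6.54% of all genes tested. Their median was 0.80, and their sum was 479.6 CPM in 2i ESC, 756 CPM at d1 and 1386 CPM at d2. *Hmgcs1*, which encodes an early enzyme of the pathway, was at 34.8 and 80.0 CPM, 2.30-fold higher (2.01 to 2.63), and *Idi1* (29.2 and 75.7 CPM) and *Cyp51* (21.9 and 45.1 CPM) were also among the higher ones. The *Hmgcs1* promoter, chr13:119690101-119690350 (GRCm38.p6, plus strand), is shown because it held the letters searched for as a sterol element bound by SREBP, TCACNCCAC on either strand, here in capitals at position -137.
Hmgcs1 promoter: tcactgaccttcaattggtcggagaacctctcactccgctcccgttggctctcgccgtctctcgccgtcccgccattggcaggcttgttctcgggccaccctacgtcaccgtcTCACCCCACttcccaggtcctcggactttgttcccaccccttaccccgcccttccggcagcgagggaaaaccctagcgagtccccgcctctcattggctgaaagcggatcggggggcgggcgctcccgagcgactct
It was 1 of 12 windows of this list with these letters, against 1.05% of all RefSeq windows and 1.04% of those of genes tested. Among genes called higher the share was 0.935%, and among genes called lower 1.21%. The letters were added after the data were seen, and the shares do not show binding.

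Many genes of amino acid synthesis and of the ATF4 response were lower at d1 than on either side of it. ATF4 is the transcription factor of the integrated stress response and of amino acid shortage, and its known targets include asparagine synthetase and the enzymes of serine synthesis. Of 16 listed 9 were lower and none was higher, against 6.54% lower among all genes tested, with a median of -1.18. Their sum was 1728 CPM in 2i ESC, 713 CPM at d1 and 2184 CPM at d2. Asparagine synthetase *Asns* was at 336, 54.6 and 147 CPM, 6.16-fold lower at d1 (5.64 to 6.73). The serine pathway genes *Phgdh* (186, 46.2 and 316 CPM), *Psat1* (221, 62.3 and 341 CPM) and *Psph* (131, 36.6 and 148 CPM) were 4.03-fold (3.64 to 4.46), 3.54-fold (3.25 to 3.87) and 3.57-fold (3.19 to 4.01) lower at d1. *Trib3* (38.3, 9.27 and 62.4 CPM) and *Ddit3*, or CHOP (10.0, 3.91 and 24.6 CPM), took the same course, while *Atf4* itself (247, 136 and 311 CPM) was under 2-fold at d1, as were the transporters *Slc7a5* (68.1, 43.0 and 89.3 CPM) and *Slc3a2* (220, 196 and 259 CPM).

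Promoters of the ATF4 list were searched for the letters of a C/EBP-ATF element, TGATGNAA on either strand, which can overlap an octamer motif. They were found in 4 of 17 windows (23.5%, those of *Asns*, *Chac1*, *Atf3* and *Slc7a11*), against 1.95% of the windows of all genes tested and 3.45% of all RefSeq windows. Among genes called lower the share was 3.27%, and among genes called higher 2.07%. The letters were added after the data were seen, the list was written around known ATF4 targets, and the shares do not show binding. The promoters of the pair with the larger differences are printed with the matching letters in capitals, *Asns* from chr6:7693210-7693459 (minus strand, match at -23) and *Chac1* from chr2:119350992-119351241 (plus strand, match at -193, on the opposite strand), both GRCm38.p6 from RefSeq.
Asns promoter: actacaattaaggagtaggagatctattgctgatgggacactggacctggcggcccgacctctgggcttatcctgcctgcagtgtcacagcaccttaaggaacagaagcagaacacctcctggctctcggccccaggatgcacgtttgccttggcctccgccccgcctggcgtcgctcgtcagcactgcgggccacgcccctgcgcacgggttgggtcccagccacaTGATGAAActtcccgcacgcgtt
Chac1 promoter: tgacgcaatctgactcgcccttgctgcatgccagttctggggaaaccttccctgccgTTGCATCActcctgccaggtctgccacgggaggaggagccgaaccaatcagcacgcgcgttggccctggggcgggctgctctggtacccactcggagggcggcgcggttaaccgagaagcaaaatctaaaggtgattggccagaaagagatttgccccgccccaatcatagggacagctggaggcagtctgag
*Chac1*, which degrades glutathione and is induced by ATF4, was at 17.5, 1.0 and 82.6 CPM in the order used above, 17.5-fold lower at d1 (9.49 to 35.7). *Slc7a11* was at 0.685, 0.636 and 5.11 CPM.

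Over all genes, 205 of 13668 (1.5%) were at least 2-fold lower in d1 EpiLC than in both 2i ESC and d2 EpiLC, and 8 of the 16 genes of the ATF4 list and 4 of the 21 glycolysis genes were among them. By the size of this dip the first were *Pck2*, the mitochondrial phosphoenolpyruvate carboxykinase (43.5, 3.73 and 72.1 CPM), *Chac1*, the respiratory chain paralog *Ndufa4l2* (30.6, 1.73 and 22.4 CPM), *Nupr1* (99.7, 6.00 and 49.8 CPM) and aldolase C, *Aldoc* (18.3, 1.73 and 16.8 CPM). Further down the order came *Vegfa* (6.05, 0.273 and 8.96 CPM) and the proline synthesis genes *Aldh18a1* (20.6, 3.27 and 21.1 CPM) and *Pycr1* (18.5, 3.09 and 20.9 CPM). This count was added, and its genes chosen, after their values were seen.

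Genes with the opposite course, at least 2-fold higher in d1 EpiLC than in both 2i ESC and d2 EpiLC, numbered 373 of 13668 (2.73%). The 5 largest by that margin were *Ms4a10* (1.03, 19.5 and 0.538 CPM in 2i ESC, d1 EpiLC and d2 EpiLC), the lincRNA *Gm19705* (8.68, 89.2 and 4.84 CPM), the lincRNA *Halr1* at the *Hoxa* cluster (0.914, 15.5 and 0.359 CPM), *Pax8*, a paired box factor of kidney and thyroid (0.343, 16.9 and 1.17 CPM), and *Gm525* (0.685, 11.7 and 0.269 CPM). All 5 were below 4 CPM in d3 EpiLC and EpiSC. *Gm19705*, for example, was detected in 84.7% of d1 EpiLC but in 14.7% of 2i ESC and 11.6% of d2 EpiLC at equal depth (22574 UMIs per cell). In ESC grown in serum plus LIF (S+L ESC) it was at 35.7 CPM, and *Halr1*, at 19.9 CPM, was above its d1 level.

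**Figure D3:**
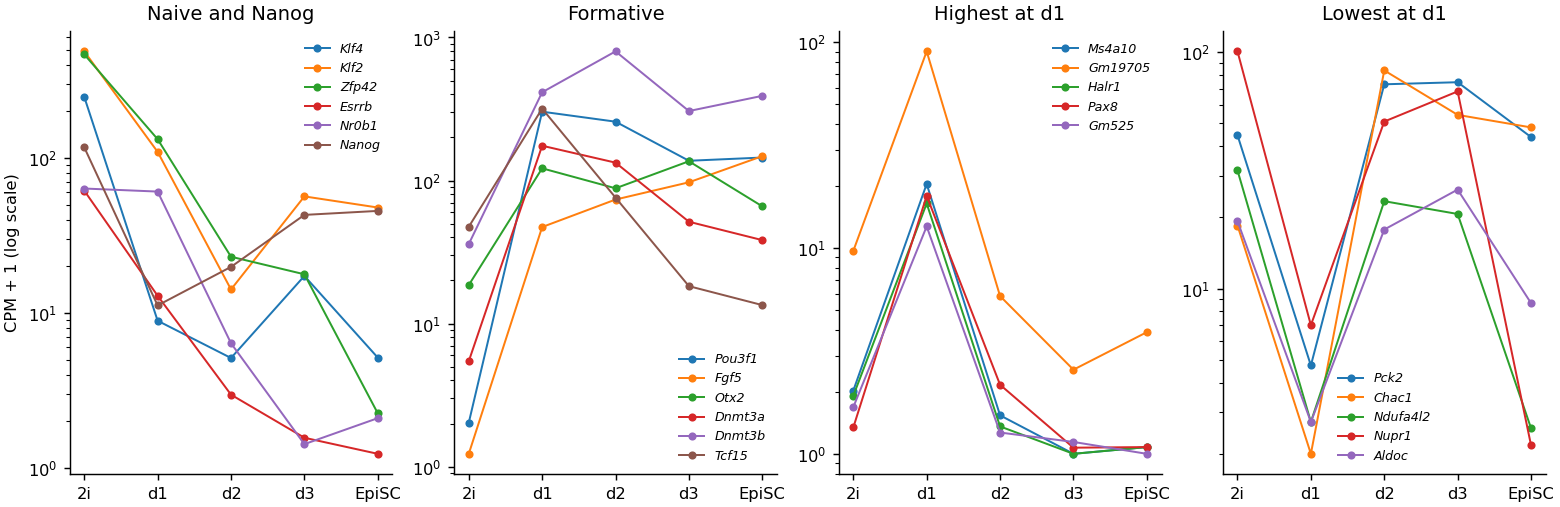
CPM + 1 (log scale) in the libraries of 2i ESC, d1, d2 and d3 EpiLC and EpiSC, 1 library a point, for naive genes with *Nanog*, formative genes, the 5 genes highest and the 5 genes lowest at d1. *Nr0b1* stays near 60 CPM until d1, *Tcf15* peaks at 317 CPM at d1, *Gm19705* is at 89.2 CPM at d1 alone, and *Chac1* is at 1.0 CPM at d1 between 17.5 and 82.6 CPM.

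Genes of epithelial junctions and polarity were higher in part. Of 17 tested 6 were higher and 1 was lower, against 12.1% and 6.54% of all genes tested, with a median of 0.66. *Epcam*, an epithelial adhesion molecule, was at 26.6 and 167 CPM, 6.29-fold (5.49 to 7.24), *Cldn6* at 3.08 and 17.9 CPM, and *Podxl*, which lines the lumen of the epiblast rosette, at 1.94 and 11.5 CPM. *Cdh1*, which encodes E-cadherin, was at 42.5 and 82.7 CPM and just under 2-fold. The keratin *Krt8* was the lower member (13.5 and 3.82 CPM) while its partner *Krt18* was higher (4.00 and 13.7 CPM), and *Cldn7* (6.74 and 5.36 CPM) reached 96.5 CPM only in d2 EpiLC. Of 6 mesenchymal genes tested *Vim* (311 and 90.3 CPM, 3.44-fold, 3.20 to 3.71) and *Zeb1* (7.19 and 2.09 CPM) were lower and *Cdh2* (1.6 and 7.46 CPM) was higher.

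Basement membrane genes went both ways. Of 17 matrix and integrin genes tested 3 were higher and 3 lower, with a median of 0.18. Among all genes tested 12.1% were higher and 6.54% lower, with a median of 0.17. The laminin chain *Lama1* was at 6.85 and 0.0909 CPM and nidogen *Nid1* at 21.1 and 3.46 CPM, whereas *Lama5* (11.6 and 28.0 CPM), *Lamb1* (1.03 and 9.73 CPM) and the laminin-binding integrin *Itga3* (0.914 and 17.2 CPM, 18.8-fold, 9.35 to 44.2) were higher. The integrin *Itga5* (5.6 and 6.46 CPM), which binds the fibronectin that d1 EpiLC were plated on, was neither. Of 15 actin cytoskeleton genes tested 3 were higher (*Vcl*, 10.6 and 24.3 CPM, *Myl9*, 0.114 and 3.64 CPM, and *Acta2*, 0 and 1.09 CPM) and none was lower.

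Many regulators of G1 were higher, and no gene of S phase or mitosis reached 2-fold. Of 14 G1 regulators 7 were higher and none was lower, against 12.1% higher among all genes tested, with a median of 0.80. Cyclin D1, *Ccnd1*, was at 43.6 and 161 CPM, 3.68-fold (3.29 to 4.12), *Ccnd2* at 0.457 and 9.55 CPM, and *Ccne1* at 114 and 352 CPM, 3.10-fold (2.89 to 3.32). The inhibitors *Cdkn1c* (13.9-fold, 10.0 to 19.8) and *Cdkn2b* (1.14 and 5.46 CPM) and the retinoblastoma gene *Rb1* (1.83 and 9.82 CPM) were higher too. *Ccnd3* was at 235 and 160 CPM and *Cdkn1b* at 4.57 and 2.09 CPM. The 13 S phase genes all had ratios above 0, with a median of 0.43, and their sum had a ratio of 1.32 (1.29 to 1.35). Of 13 mitosis genes 12 had ratios above 0, with a median of 0.38 and a ratio of the sum of 1.23 (1.20 to 1.26). The median of all genes tested was itself 0.17. With a size factor by the median ratio the medians were 0.27 for S phase, 0.22 for mitosis and 0.04 for all genes.

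Most targets of p53 were higher, but not *Cdkn1a*. Of 11 listed 8 were higher and none was lower, against 12.1% higher among all genes tested, with a median of 1.16. *Mdm2*, the ligase that limits p53, was at 34.0 CPM in 2i ESC, 94.8 CPM at d1 and 41.1 CPM at d2, 2.79-fold higher at d1 (2.45 to 3.18). *Trp53inp1* (12.3, 43.7 and 25.5 CPM), *Ccng1* (87.0, 213 and 142 CPM), *Aen* (65.3, 147 and 102 CPM) and *Eda2r* (5.14, 13.5 and 3.94 CPM) took the same course. The proapoptotic *Bbc3*, or PUMA (16.9, 45.2 and 62.2 CPM), was higher again at d2, and under 2-fold at d1 were *Bax* (564, 999 and 718 CPM) and *Cdkn1a*, which encodes p21 (91.0, 92.0 and 45.5 CPM).

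The gene sets that the study defined from its scRNA-seq were followed as well. The ESC, EpiLC and EpiSC sets were chosen by contrasts among 2i ESC, d2 EpiLC and EpiSC, so their direction is not independent evidence. The PGCLC set was chosen within the d2 and d4 EB, by a contrast that held neither library compared here. Of 493 ESC genes 227 were lower and 22 higher at d1, with a median log2 ratio of -0.85, and the median of d2 EpiLC over 2i ESC was -1.69. Of 383 EpiLC genes tested 168 were higher and 15 lower, with a median of 0.84, which was 1.52 at d2. Both d1 medians were at about the middle of the d2 values on the log2 scale. The d2 EpiLC library helped to choose these sets and the d1 EpiLC library did not, so smaller values at d1 were favoured by the choice. Of 510 EpiSC genes tested 144 were higher and 20 lower, and of 386 PGCLC genes 60 were higher and 74 lower, with a median of 0.01.

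Single cells of the stages were well separated. Of the 20 nearest neighbors of a d1 EpiLC, on average 1.23% were 2i ESC, against 44.9% expected from random mixing of both libraries, and of the neighbors of a 2i ESC 0.0220% were d1 EpiLC. Only 3 d1 EpiLC had mostly 2i ESC among their neighbors. For shares of cells with a UMI, cells were thinned to an equal depth of 22574 UMIs (23 2i ESC and 25 d1 EpiLC were shallower and were dropped). EpiSC, the primed cells of the series, served as the background for *Klf4*, *Zfp42* and *Tbx3*. They are no such background for every naive factor, since *Klf2* was detected in 47.6% of EpiSC and *Klf5* in 18.6%. *Klf4* was detected in 97.1% of 2i ESC (93.7 to 98.9) and in 15.3% of d1 EpiLC (11.1 to 20.3), against 5.99% of EpiSC. *Zfp42* was detected in 100% and 78.8% (73.3 to 83.7), against 2.84% of EpiSC, and *Tbx3* in 93.1% and 11.4% (7.75 to 15.9), against 2.21% of EpiSC. The median d1 EpiLC held 2 UMIs of *Zfp42*, the 90th percentile 8 and the highest cell 18, while the median 2i ESC held 10. *Nanog* was detected in 93.1% of 2i ESC, 16.1% of d1 EpiLC (11.8 to 21.2) and 35.1% of d2 EpiLC (29.4 to 41.1).

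Formative genes were on in nearly every d1 EpiLC, but not each of them. *Pou3f1* was detected in 1.96% of thinned 2i ESC (0.537 to 4.94) and in 93.7% of d1 EpiLC (90.01 to 96.4), *Dnmt3a* in 11.3% and 92.9% (89.1 to 95.8), *Otx2* in 32.4% and 90.6% (86.3 to 93.9) and *Dnmt3b* in 55.9% and 99.2%. *Fgf5* was detected in 1 of 204 thinned 2i ESC, 55.3% of d1 EpiLC (49.0 to 61.5) and 71.6% of d2 EpiLC. *Wt1* was found in 48.6% of d1 EpiLC (42.3 to 54.9) and 0 of 204 2i ESC, a count that still permits up to 1.79% of cells with a UMI. The values in 2i ESC serve as the background, at the same depth.

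The share of a cell's UMIs that came from a list was compared between stages without thinning. The 12 naive factors made up a median of 0.189% in 2i ESC and 0.0358% in d1 EpiLC, with a highest d1 cell at 0.217%. Of 280 d1 EpiLC 11 (3.93%, 1.98 to 6.92) were at or above the 5th percentile of 2i ESC. This held for 1 of 289 d2 EpiLC, 0 of 373 EpiSC (upper limit 0.984%) and 247 of 309 S+L ESC (79.9%). With the 12 other naive genes added, which brings in the abundant *Dppa5a*, the number was 62 of 280 (22.1%, 17.4 to 27.5). The 20 formative genes made up a median of 0.0268% in 2i ESC and 0.207% in d1 EpiLC, and 274 of 280 d1 EpiLC (97.9%, 95.4 to 99.2) were above the 95th percentile of 2i ESC.

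Both programs were found in the same cells. All 11 d1 EpiLC at or above the 5th percentile of 2i ESC in naive factors were also above the 95th percentile in formative genes, as were 274 of all 280 d1 EpiLC. The median formative share of these 11 cells was 0.141%, against 0.212% in the 263 cells past the formative percentile alone. In the 11 cells the median share of naive factors, 0.145%, was below the lower quartile of 2i ESC, 0.163%. None of the 11 was called a doublet, and their median depth was 27707 UMIs. The 6 d1 EpiLC past neither percentile were shallower, with a median of 17066.5 UMIs against 37110 UMIs in the 263 cells past the formative percentile alone, all had *Pou5f1* (628 to 1466 CPM), and 1 of them carried genes of other tissues. Across the 255 thinned d1 EpiLC the shares of naive factors and formative genes correlated with a Pearson coefficient of -0.28, and across 204 thinned 2i ESC with 0.08. The points are cells of 1 library at 1 depth, and shares of the same total constrain each other. Before thinning, the formative share of d1 EpiLC rose with a cell's UMIs (Spearman 0.32), and the coefficients above are those at equal depth.

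**Figure D4:**
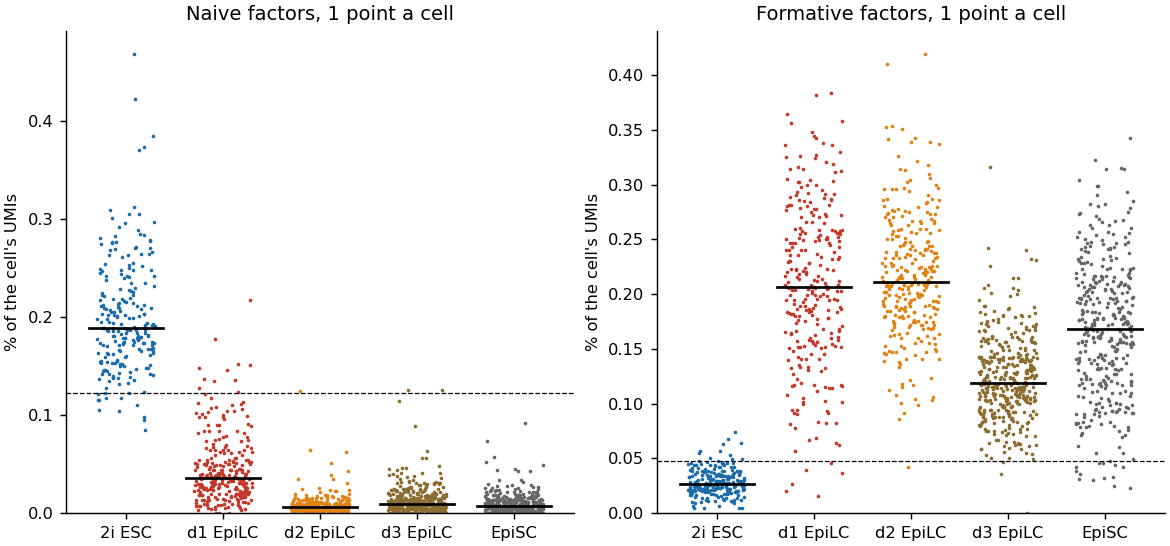
Share of each cell's UMIs, in percent, from the 12 naive factors (left) and the 20 formative genes (right) in 5 libraries, 1 point a cell, with bars at the medians and dashed lines at the 5th (left) and 95th (right) percentile of 2i ESC. The median d1 EpiLC is at 0.0358% on the left, with 11 of 280 cells at or above the line, and at 0.207% on the right, with 274 of 280 above.

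As a description, genes that followed these lists across d1 EpiLC were ranked by the Pearson coefficient of their log thinned counts with the log sum of the list, leaving the gene itself out. Of 4801 genes, those following the naive factors most were *Zfp42* (0.50), *Chchd10* (0.41), *Manba* (0.39), *Klf2* (0.39) and *Hspb1* (0.38), with *Nr0b1* (0.38) and *Tdh* (0.35) close by. In 2i ESC the same genes were at 0.31, 0.09, -0.01, 0.17 and 0.16. The middle 95% of genes lay between -0.13 and 0.19 in d1 EpiLC. The formative list was followed by *Dnmt3b* (0.58), *Ube2s* (0.54), *Hells* (0.53), a remodeller needed for DNA methylation, and *Ccne1* (0.52), and the lowest were *Ppia* (-0.56), *Gapdh* (-0.52), *Atp5b* (-0.51), *Eef1a1* (-0.48) and *Dppa5a* (-0.48). The p53 list was followed by *Phlda3* (0.62) and *Mdm2* (0.54), both members, and by *Sdc4* (0.51) and *Dcxr* (0.51), and *Dnmt3b* was at -0.36. Formative genes and p53 targets had a coefficient of -0.31 in d1 EpiLC and 0.09 in 2i ESC.

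Spread between cells was measured as the Fano factor, the variance over the mean of UMIs in thinned cells, which is 1 for counting noise alone. Over 7521 genes with a mean of at least 0.1 UMI in both libraries the median was 1.07 in 2i ESC and 1.11 in d1 EpiLC, and 4576 genes (60.8%) had the larger value in d1 EpiLC. This share was 78.6% among 546 genes called higher and 43.0% among 335 genes called lower, and it was 60.3% among the 6640 genes called neither. Of these 6640 genes, 218 had a factor at least 1.5 times larger in d1 EpiLC and 32 in 2i ESC. The Fano factor also depends on a gene's level. A factor over 2 was found for 198 genes in 2i ESC and 352 in d1 EpiLC.

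Named genes showed both directions. *Mdm2* had 1.15 in 2i ESC and 4.02 in d1 EpiLC, *Hes6* 1.09 and 4.58, *Sdc4* 1.72 and 7.04, *Tcf15* 1.19 and 3.97 and *Dnmt3b* 1.11 and 2.84. *Zfp42* had a larger factor at d1, 1.75 and 3.52, at a lower level. *Klf4* went from 2.99 to 1.25, and *Actb* from 15.3 to 6.23 at nearly the same mean (18.2 and 20.4 UMIs per thinned cell). The glycolysis genes *Aldoa* (5.32 and 2.49), *Ldha* (7.5 and 3.74) and *Gpi1* (2.33 and 1.23) had smaller factors in d1 EpiLC, at lower means (30.8 and 11.7 UMIs per thinned cell for *Aldoa*). For the whole glycolysis list the factor of the summed UMIs was 19.8 and 9.91, whereas the coefficient of variation of its share in thinned cells was 0.274 and 0.267. For the p53 list the factor was 2.82 and 4.85 and the coefficient of variation 0.359 and 0.342. The largest factors of all were those of *Malat1*, *Ftl1-ps1*, *Actb*, *Dppa5a* and *mt-Atp6* in 2i ESC and of *mt-Atp6*, *Malat1*, *Rpl41*, *Ftl1-ps1* and *Eef1a1* in d1 EpiLC.

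**Figure D5:**
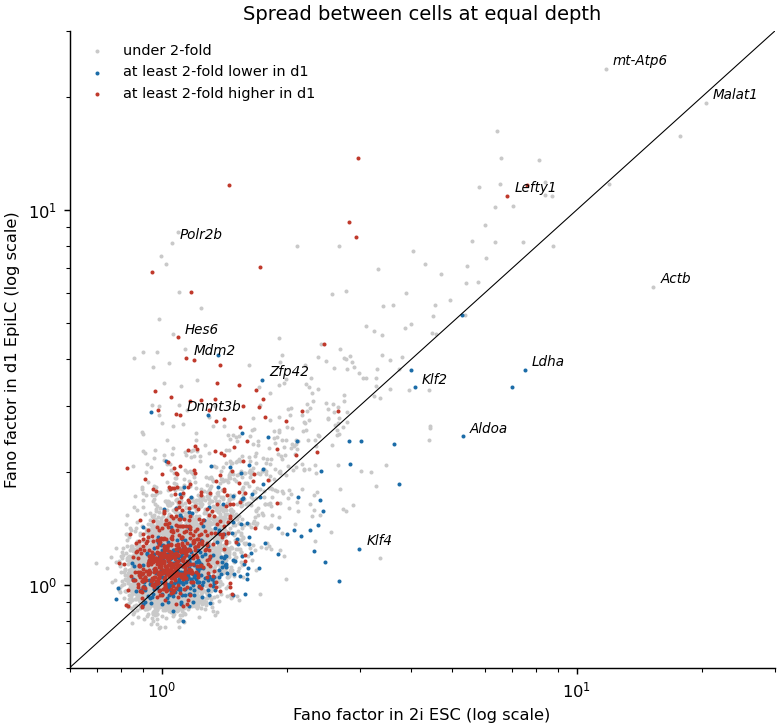
Fano factor of UMIs in cells thinned to 22574 UMIs, in 2i ESC (horizontal) and d1 EpiLC (vertical) on log scales, 1 point a gene, coloured by the 2-fold call, with equality as the diagonal. *Mdm2*, *Hes6* and *Dnmt3b* lie above the diagonal, *Klf4*, *Actb*, *Aldoa* and *Ldha* below it.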

How the data were processed

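The deposited values are raw UMI counts that the authors obtained with Cell Ranger on mouse GRCm38. In merging the 8 libraries the authors subsampled reads until every library had the same mapped reads per cell, and no scaling followed. Stages were assigned by barcode suffix as the study's supplement gives them, and 27645 of 27998 Ensembl identifiers were paired with symbols and positions through a GENCODE annotation of GRCm38. The R1 libraries of the series were not used here.

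UMIs were summed per library (8757170 in 2i ESC, 10997941 in d1 EpiLC), scaled to CPM and compared as log2(CPM + 1) for genes with at least 10 UMIs. Intervals are exact (Poisson, conditional and Clopper-Pearson) at 95%. Cells were thinned without replacement to 22574 UMIs with seed 1. Neighbors used 20 principal components of 2000 variable genes. The genes named are the 15 largest rises and falls with at least 100 UMIs, members of 37 lists written from general knowledge, the 5 largest Fano factors per library, the 5 genes highest at d1, and, chosen after their values were seen, genes lowest at d1, leading correlations and Fano changes. Some named or listed genes are counted but not reported here by name. Members and lists were chosen with earlier results of these data known. Promoters are RefSeq windows of 250 bases (GRCm38.p6), matched by symbol for 9670 of 12479 genes tested, and the letters for ATF4 and SREBP were added after the data were seen. Alternatives changed the pseudocount, minimum, scaling, fold, doublets, depth, thresholds, neighbors and seed. Computations were tested on simulated data, with Python 3.11.15, numpy 2.4.6, scipy 1.17.1, pandas 2.3.3, scikit-learn 1.9.0, scanpy 1.11.5 (Scrublet) and matplotlib 3.10.9.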

Additional observations from a re-analysis of the deposited data

How the results depend on the processing

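All 30 of the largest rises and falls kept their sign and stayed at least 2-fold under each alternative they were run with. They were picked for the size of their ratios, so this outcome was largely fixed in advance. The signs of the other called genes were not followed. With a pseudocount of 0.1 CPM 2179 genes were higher and 1227 lower, and with 5 CPM 587 were higher and 377 lower. A 1.5-fold rule gave 3249 higher and 1796 lower, and a 4-fold rule 304 and 170. Of 8 lists with a median of at least 1 in size, 3 remained so with a pseudocount of 5 CPM. The share of d1 EpiLC in the 2i range of naive genes was 22.1%, and 31.4% with the 1st percentile, 14.6% with the 10th and 3.93% with the naive factors alone. Without thinning the median Fano factor was 1.28 in d1 EpiLC and 1.22 in 2i ESC, and with a mean of at least 0.5 UMI 2318 of 3579 genes had the larger factor in d1 EpiLC. Neighbors from 2i ESC were 1.66% with 50 neighbors and 0.294% with thinned cells. Genes highest at d1 numbered 125 with a pseudocount of 5 CPM and 1024 at 1.5-fold, and genes lowest at d1 71 and 740, the latter 2 chosen after seeing the data. With a size factor by the median ratio, list medians moved by -0.16 to -0.08, and those of WNT targets (0.06) and mediators (0.15) became -0.09 and -0.01. Thinning moved list medians by -0.31 to 0.31 and turned that of matrix genes from 0.18 to -0.08. A pseudocount of 0.1 CPM moved them by -0.26 to 1.88 and turned that of neurectoderm markers, which rests on 2 genes, from -0.17 to 1.0. With the total taken without mitochondrial and ribosomal protein genes, 57.9% of calls were higher.

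No paired analysis was possible because each stage was 1 library. The intervals hold counting error only, genes under 10 UMIs were not called, and a level under 3 UMIs is not told from 0. How far 1 culture of each stage differs from another is not known from these libraries.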

Other observations

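Long noncoding and antisense genes were called higher more often than coding genes. Of 263 lincRNA genes tested 70 (26.6%) were higher and 10 lower, and of 203 antisense genes 52 (25.6%) were higher and 13 lower, against 1376 of 11899 protein-coding genes (11.6%). Their medians were 0.34 and 0.36 beside 0.17. These classes were not matched for level. Over all genes, 825 of the 8110 with at least 100 UMIs were higher, against 1511 of all 12479 tested. *Platr5*, a lincRNA first listed for pluripotent cells, was at 0.343, 26.5 and 3.14 CPM in 2i ESC, d1 EpiLC and d2 EpiLC, and *Gm26870* at 14.8, 100.1 and 7.62 CPM. Chromosome medians over genes with at least 100 UMIs ranged from 0.09 to 0.22, with 0.20 on the X.

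Other genes highest at d1 came from unrelated families. In 2i ESC, d1 EpiLC and d2 EpiLC the hypoxia factor *Epas1* was at 1.14, 14.5 and 0.717 CPM, the lysine catabolism gene *Aass* at 0.114, 11.8 and 0.717 CPM, and the claudin *Cldn5* at 0.114, 11.2 and 0.896 CPM. These were chosen after their values were seen.

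One d1 EpiLC stood apart. It held 29454 UMIs from 4438 genes, 1.01% of them mitochondrial, 34 UMIs of *Pou5f1*, 6 of the formative genes and 1 of the naive factors. This cell alone held at least 50% of the library's UMIs of 12 genes, among them *Them5* (36 of 49 UMIs), *Drc1* (19 of 22), *Alb* (18 of 20) and *Gsn* (21 of 28). Without it 1473 genes were higher and 830 lower, and 46 of the 1511 higher genes were lost. Over all cells of d1 EpiLC 16 genes with at least 20 UMIs were held in this way by 4 cells, against 0 in 2i ESC and d2 EpiLC, 22 in d4 EB and 11 in S+L ESC. The origin of this cell was not tested.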
